A study of Mus musculus with 8 samples.

Results

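The genes described here are 40 genes of DNA repair, the Fanconi anaemia pathway and the damage checkpoint, taken by symbol from a count table of 26146 genes. All 40 symbols were in the table and all 40 passed the filter on low counts, which left 13439 genes for testing. They fall into 16 genes of homologous recombination, 9 Fanconi genes, 4 genes of end joining, 2 of mismatch repair, 5 of excision repair and 4 checkpoint kinase genes. Messenger RNA was sequenced in bulk from Lin-Sca1+Kit+ (LSK) cells, the fraction of haematopoietic tissue that holds the stem cells and the earliest progenitors. Jmjd6 KO denotes 4 mice in which a cell-type-specific Cre, active in blood lineages, had removed a floxed Jmjd6, and wild type denotes 4 mice, with 1 library made from each animal. Of the Cre promoter, the strain, sex and age of the mice, and whether the wild type mice carried Cre or the floxed allele, the sources used here say nothing.

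Homologous recombination copies an intact sister sequence to mend a broken chromosome and is used mainly in S and G2 phase, whereas end joining ligates broken ends at any time in the cycle. The Fanconi proteins unhook crosslinks between DNA strands, and their loss in humans causes bone marrow failure through the loss of haematopoietic stem cells. Mismatch repair corrects replication errors, excision repair removes damaged bases or bulky lesions, and the ATM and ATR kinases with their targets CHEK2 and CHEK1 halt the cycle when DNA is damaged. JMJD6 is an oxygenase of the Jumonji family that adds hydroxyl groups to lysines in proteins such as splicing factors.

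Total counts per library ran from 9964528 to 13516922 in the KO group and from 9344779 to 15079960 in the wild type group. Jmjd6 itself averaged 28.7 ± 1.41 CPM in KO libraries and 58.6 ± 5.93 CPM in wild type libraries (SD, n = 4 each; CPM, counts scaled to a common library size with TMM factors). Its counts thus remained in every KO library, at 27.5 to 30.7 CPM. Whether they came from cells that kept the gene or from a transcript without the floxed part was not tested. The log2 fold change of Jmjd6 was -1.03, and its adjusted p in edgeR's quasi-likelihood fit was 0.0381. That p was 0.0986 to 0.254 when any library other than KO replicate 3 was left out. The adjusted p of Jmjd6 was 3.32e-07 by the DESeq2 Wald test and 0.00527 by limma voom with sample weights. Kit, which the cell sort used, stood at 397 to 508 CPM in KO libraries and 457 to 501 CPM in wild type libraries. Of 10 genes that mark LSK cells and their subsets 0 passed by edgeR. An unadjusted p under 0.05 was found in 3 of the 10, 1 higher and 2 lower in KO, beside 6.06% of all genes tested. Groups did not overlap in 3, beside 4.19% of all genes. These were Cd48 at 209 to 268 CPM in KO and 37.0 to 204 CPM in wild type, Slamf1 at 9.03 to 11.8 CPM in KO and 3.85 to 8.98 CPM in wild type, and Hlf at 113 to 161 CPM in KO and 187 to 291 CPM in wild type. The T cell gene Cd3e and the neutrophil gene Ly6g had at most 0.264 CPM in any library. Other marker genes of lymphoid and granulocyte-monocyte lineages were present, which by itself does not show mature cells. Nkg7 stood at 259 to 372 CPM in KO and 132 to 225 CPM in wild type, and S100a8 at 6.32 to 19.5 CPM in KO and 0.98 to 82.3 CPM in wild type. Some libraries stood apart from their group. KO replicate 3 had a score of 83.9 on the first principal component of all genes, against -28 to 9.41 in the other 7. It and wild type replicate 4 held 0 counts of 4 Y-linked genes, against 3660 to 4814 in every other library. By these counts each group mixed female and male mice. Wild type replicate 1 carried the myeloid gene Mpo at 3191 CPM and the erythroid gene Car1 at 328 CPM, against at most 1683 and 43.3 CPM in the other 7 libraries. In these bulk samples fewer cells of a type and less RNA per cell cannot be told apart.

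Many genes of S phase and repair are known to be driven by E2F transcription factors, so the promoters were read for the core letters of the E2F motif, TTGGCGC or TTCCCGC on either strand. RefSeq windows of the build GRCm38.p6, from 250 bases before to 50 after the transcription start, matched 32 of the 40 genes with 35 windows. The E2F letters were present in 17 of these 35 windows, or 48.6%, against 11.7% of the 13043 windows of all genes tested and 6.8% of all 32851 windows. In the list of S phase genes the share was 62.5% of 16 windows. The motif CHR (TTTGAA on either strand), which marks genes of G2 and mitosis, was in 2 of the 35 windows, or 5.7%, against 12.4% of windows of all genes tested and 72.2% of the 18 windows of the G2 and mitosis list. Genes with the E2F letters were Atm, Bard1, Brca1, Brca2, Chek1, Chek2, Ercc2, Fancf, Fancg, Fanci, Fancm, Msh6, Pms2, Rad51c, Rad52, Xrcc4 and Xrcc6. The 17 had a median log2 fold change of 0.03 in KO over wild type and the 15 others with a window 0.09, beside 0.03 for all 1436 tested genes with the letters and -0.01 for the 8867 without. A match of letters is a description of the window and does not show that a factor binds there. The stretches below belong to the 4 genes of smallest p whose match, with 40 bases on each side, lay before the start and clear of annotated exons, and show 1 such match each in capitals, read 5′ to 3′ on the strand of the gene. They come from chr7:19381885-19381971 (plus strand) for Ercc2, chr5:110839791-110839877 (plus) for Chek2, chr5:150522413-150522499 (plus) for Brca2 and chr11:87404976-87405062 (minus) for Rad51c.
Ercc2: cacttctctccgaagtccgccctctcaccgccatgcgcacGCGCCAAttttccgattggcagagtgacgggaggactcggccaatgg
Chek2: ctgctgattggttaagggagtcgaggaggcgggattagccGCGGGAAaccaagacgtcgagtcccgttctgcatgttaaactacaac
Brca2: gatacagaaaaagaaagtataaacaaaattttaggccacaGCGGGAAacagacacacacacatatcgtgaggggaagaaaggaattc
Rad51c: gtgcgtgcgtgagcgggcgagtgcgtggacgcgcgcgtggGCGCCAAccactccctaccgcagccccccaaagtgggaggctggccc

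All 40 genes had counts in every library. Per kilobase of exon, Parp1, the sensor of single-strand breaks, was highest at 57.4 ± 3.71 CPM per kb in KO and 53.9 ± 3.95 in wild type (SD, n = 4 each). Xrcc6, which encodes the Ku70 subunit that caps broken ends, followed at 43.7 ± 5.74 in KO and 38.7 ± 1.89 in wild type, and Msh6, the mismatch-recognition gene, at 39.8 ± 8.33 in KO and 39.4 ± 6.31 in wild type. The library values of Xrcc6 and Msh6 overlapped, so their order is not set by these data. Nbn at 28.6 ± 4.64 in KO and 26.5 ± 1.6 in wild type, Fancl at 19.6 ± 2.75 in KO and 16.1 ± 1.52 in wild type, and Chek2 at 25.1 ± 1.59 in KO and 22.3 ± 1.18 in wild type had the highest means on this scale in recombination, the Fanconi pathway and the checkpoint, but overlapped in library values with Rad50, Fancg and Chek1, the next in each. The lowest means were those of Bard1, the partner of Brca1, at 1.61 ± 0.459 in KO and 1.59 ± 0.629 in wild type, and Rad51c, a mediator of recombination, at 1.89 ± 0.109 in KO and 1.85 ± 0.477 in wild type. Their library values overlapped with each other and with those of Fancm and Atr, so the order at the low end is not set either. Counts of these genes in a library ran from 75 to 4609, and 38 of 40 had at least 100 in every library. Lengths are unions of annotated exons, so a level per kilobase is low where rarely used exons make a gene long.

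**Figure D1:**
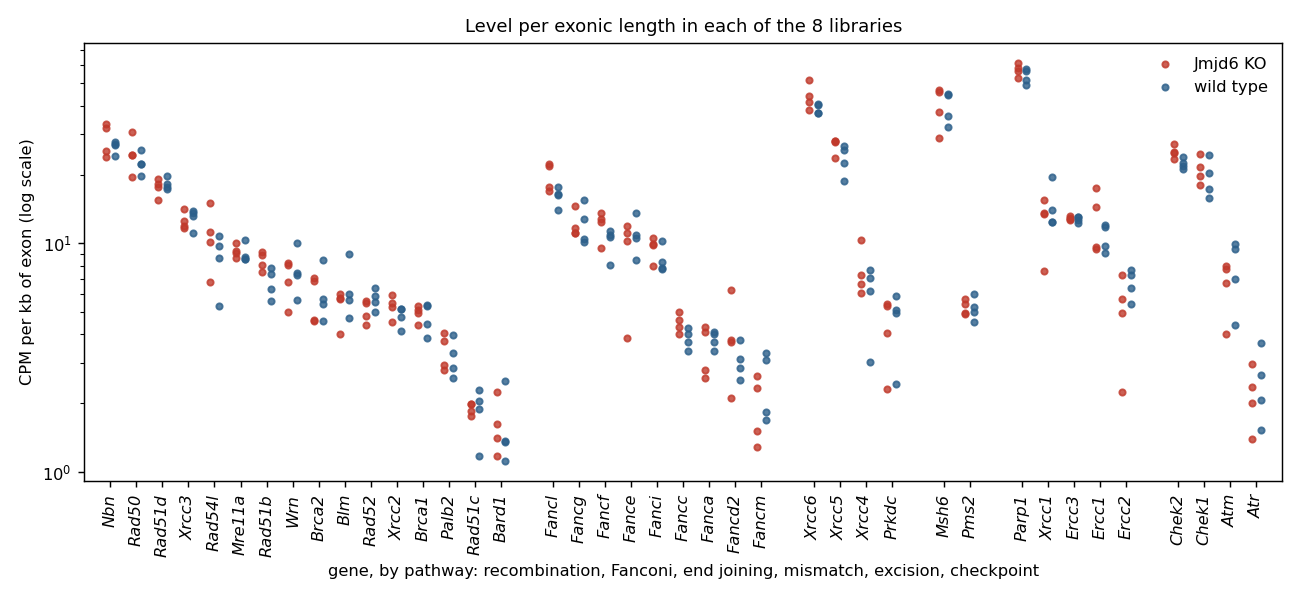
Level of each gene in CPM per kilobase of exon (log axis) in each of the 4 Jmjd6 KO libraries (red) and 4 wild type libraries (blue), grouped by pathway and ordered by level. Parp1 has the highest mean at 57.4 CPM per kb in KO and 53.9 in wild type, Bard1 the lowest at 1.61 in KO and 1.59 in wild type, and in every gene the points of both groups overlap.

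Of the 40 genes 0 passed in the comparison of KO with wild type by edgeR's quasi-likelihood test with Benjamini-Hochberg adjustment over all 13439 genes, of which 0.0595% were called. The smallest adjusted p among them was 0.832. Without adjustment 0 of 40 had a p under 0.05, against 6.06% of all genes tested, and 0 of 40 had library values that did not overlap between groups, against 4.19% of all genes. The DESeq2 Wald test and limma voom with sample weights also called 0 of the 40, against 0.491% and 0.231% of all genes. They gave 0 of the 40 an unadjusted p under 0.05, against 6.8% and 9.96% of all genes. Of the 40, 25 had a log2 fold change above 0 and 15 below, with a median of 0.04 and a range from -0.41 to 0.37, beside a median of -0.002 over all genes tested. Without wild type replicate 1 the median of the 40 was 0.13.

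The test was precise enough to bound the differences. The 95% interval of the fold change, from the standard error of the edgeR fit, lay within 2-fold either way in 39 of the 40 genes, or 97.5%, against 73.6% of all genes tested. It lay within 1.5-fold in 23, or 57.5%, against 33.1% of all genes. The exception at 2-fold was Ercc2, whose interval reached -1.06 on the log2 scale. The narrowest was that of Parp1, with a log2 fold change of 0.09 (95% interval -0.19 to 0.37).

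**Figure D2:**
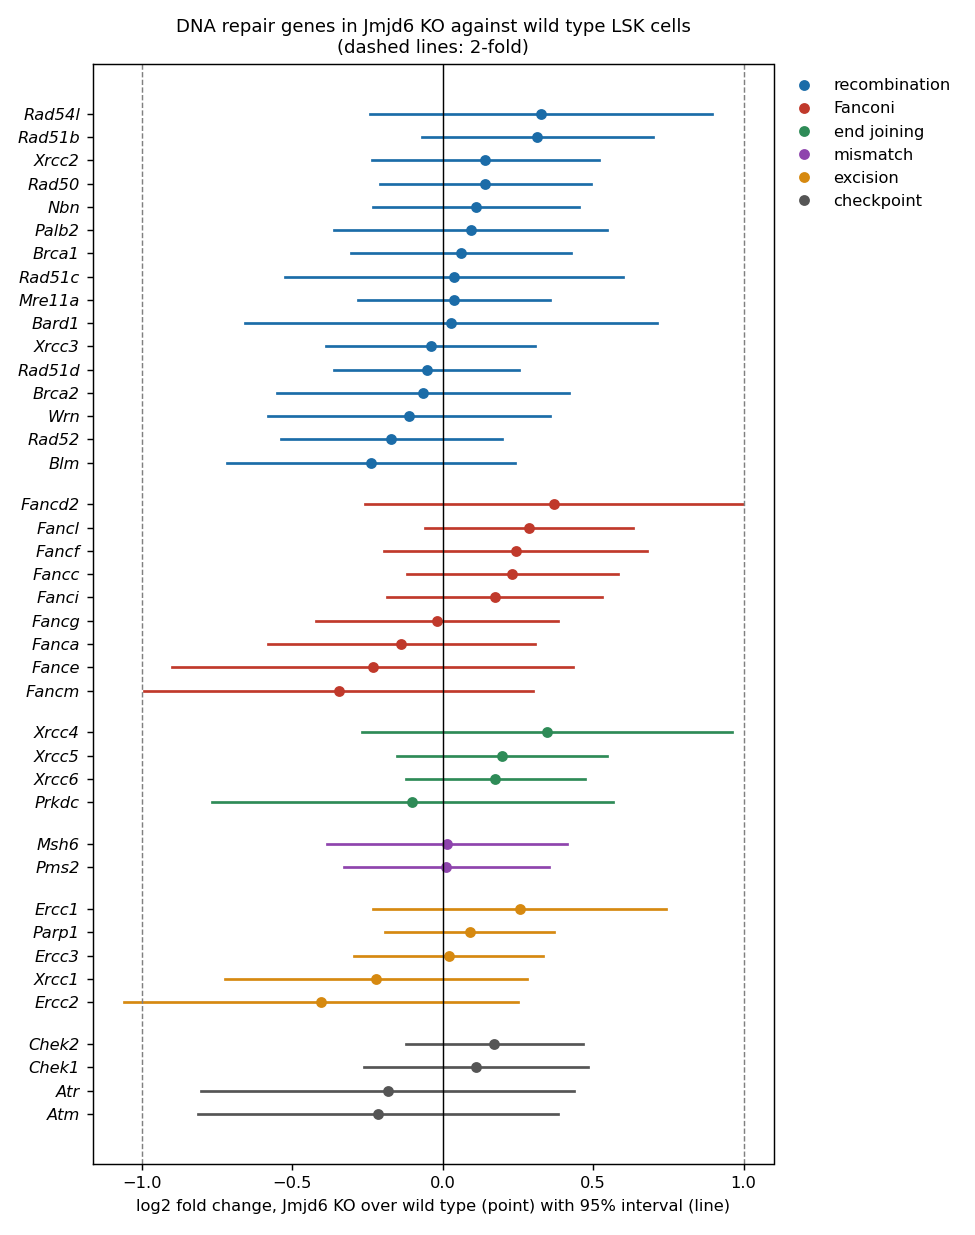
Log2 fold change of the 40 genes, Jmjd6 KO over wild type, as points with 95% intervals as lines, coloured by pathway; dashed lines mark 2-fold. Every interval crosses 0 and only that of Ercc2, down to -1.06, passes a dashed line.

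In homologous recombination 10 of 16 genes lay above 0, with a median of 0.04 and 0 with an unadjusted p under 0.05 by edgeR. Brca1 and Brca2, which act at the resection of broken ends and at strand invasion, averaged 42.4 ± 3.42 and 78.8 ± 18.6 CPM in KO and 40.7 ± 6.28 and 82.5 ± 23.0 CPM in wild type. Their log2 fold changes were 0.06 (95% interval -0.30 to 0.43) and -0.07 (-0.55 to 0.42). Palb2, which links the Brca1 and Brca2 proteins, gave 0.09, and Bard1 gave 0.03. Rad51b (chromosome 12, 79297282 to 79814690, plus strand), a mediator of recombination, had the smallest p of these 16. It held 33.5, 28.1, 30.2 and 34.4 CPM in KO replicates 1 to 4 and 29.3, 23.7, 27.5 and 21.1 CPM in wild type replicates 1 to 4. Wild type replicate 1 lay above KO replicate 2, so the groups overlapped (log2 fold change 0.31, 95% interval -0.07 to 0.70, adjusted p = 0.832 by edgeR). The related mediator genes Rad51c, Rad51d, Xrcc2 and Xrcc3, gave 0.04, -0.05, 0.14 and -0.04.

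Rad54l, a motor protein gene of strand exchange, held 86.7, 78.1, 115 and 52.4 CPM in KO libraries and 82.9, 41.0, 74.7 and 66.8 CPM in wild type libraries. Its highest value was in KO replicate 3 and its lowest in wild type replicate 2. Its log2 fold change of 0.33 was 0.13 without KO replicate 3 and 0.15 without wild type replicate 2. It shares 15.4% of its exonic length with Lrrc41 on the opposite strand, whose reads may have been counted with it. The members of the end-sensing complex, Mre11a, Rad50 and Nbn, gave 0.04, 0.14 and 0.11. Rad52, an annealing protein gene, and the helicase genes Blm and Wrn gave -0.17, -0.24 and -0.11.

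Among the Fanconi genes 5 of 9 lay above 0, with a median of 0.17 and 0 with an unadjusted p under 0.05 by edgeR. Fancl (chromosome 11, 26386135 to 26471876, plus strand), the ubiquitin ligase subunit of the core complex, had the smallest p of the 40 genes. It held 59.2, 57.2, 73.4 and 74.9 CPM in KO replicates 1 to 4 and 55.0, 47.1, 59.4 and 55.4 CPM in wild type replicates 1 to 4. KO replicates 3 and 4 lay above every wild type library, whereas KO replicates 1 and 2 lay below wild type replicate 3 (log2 fold change 0.29, 95% interval -0.06 to 0.63, adjusted p = 0.832 by edgeR). Fancl shares 13.7% of its exonic length with Vrk2 on the opposite strand. Fancc shares 16.43% with Gm16133, Fanci 15.95% with Polg, Fancf 14.96% with Gas2 and Fanca 10.5% with Zfp276, all on the opposite strand. Of the 40 genes 10 share over 5% of their exonic length with another gene.

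The core complex genes Fancc, Fancf, Fancg, Fanca and Fance gave log2 fold changes of 0.23, 0.24, -0.02, -0.14 and -0.23. Fancm, which anchors the complex to DNA, gave -0.35, or -0.19 without KO replicate 3 and -0.165 without wild type replicate 1. Fancd2 and Fanci encode the clamp that the core complex marks with ubiquitin. Fancd2 held 30.0, 29.3, 49.7 and 16.7 CPM in KO libraries and 30.0, 22.7, 24.7 and 20.1 CPM in wild type libraries. KO replicate 3 was the highest of the 8 libraries and KO replicate 4 the lowest, so the KO values enclosed those of wild type. Its log2 fold change of 0.37 (95% interval -0.26 to 1.00, adjusted p = 0.843 by edgeR) was 0.06 without KO replicate 3 and 0.58 without KO replicate 4. Fanci averaged 55.5 ± 6.52 CPM in KO and 49.2 ± 6.72 CPM in wild type, with a log2 fold change of 0.17. Fance stood at 12.4 CPM in KO replicate 3, against 32.6 to 38.1 CPM in the other 3 KO libraries and 27.1 to 43.5 CPM in wild type, and its value of -0.23 was 0.02 without that library.

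In end joining Xrcc6 and Xrcc5, the genes of the Ku heterodimer, gave log2 fold changes of 0.18 and 0.20. Xrcc6 (chromosome 15, 81987835 to 82040085, plus strand) held 171, 185, 231 and 197 CPM in KO replicates 1 to 4 and 166, 181, 166 and 180 CPM in wild type replicates 1 to 4. KO replicate 1 lay inside the wild type range and the other 3 above it (95% interval -0.12 to 0.47, adjusted p = 0.842 by edgeR). Without KO replicate 3 the value was 0.09. Xrcc4, a scaffold of the ligation step, gave 0.35, with wild type replicate 2 lowest at 12.8 CPM and KO replicate 3 highest at 43.7 CPM. Prkdc, the catalytic subunit of the DNA-dependent kinase, gave -0.10.

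The mismatch repair genes Msh6 and Pms2 had the smallest differences of any pathway, at 0.01 each. Msh6 held 203, 200, 126 and 163 CPM in KO libraries and 195, 156, 193 and 140 CPM in wild type libraries. Both groups therefore spanned nearly the same range (95% interval -0.38 to 0.41, adjusted p = 0.992 by edgeR).

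In excision repair 3 of 5 genes lay above 0. Ercc3, a helicase subunit of the factor TFIIH, was the steadiest of the 40 genes, at 36.8, 37.3, 36.1 and 36.0 CPM in KO libraries and 36.9, 35.8, 36.9 and 34.7 CPM in wild type libraries. Ercc2 (chromosome 7, 19382010 to 19395694, plus strand) encodes the other helicase of TFIIH and had the largest difference of the 40. It held 30.4, 23.9, 9.38 and 20.8 CPM in KO replicates 1 to 4 and 22.7, 31.9, 30.3 and 26.6 CPM in wild type replicates 1 to 4. KO replicates 1 and 2 lay inside the wild type range and KO replicates 3 and 4 below it, with KO replicate 3 far the lowest. The log2 fold change of -0.41 (95% interval -1.06 to 0.25, adjusted p = 0.837 by edgeR) was -0.16 without KO replicate 3. Ercc2 shares 24.6% of its exonic length with the antisense gene Gm26852 and 17.8% with Klc3 on the opposite strand.

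Xrcc1, the scaffold of single-strand break repair, had the same low library: 44.4 CPM in KO replicate 3, against 78.3 to 90.1 CPM in the other KO libraries and 72.0 to 114 CPM in wild type. Its log2 fold change was -0.22, and -0.04 without KO replicate 3. Ercc1, a nuclease subunit gene, went the other way in that library, with 54.1 CPM against 29.5 to 44.8 CPM in the other KO libraries and 28.3 to 37.5 CPM in wild type. Its value of 0.26 was 0.07 without KO replicate 3. The cause of the departures of KO replicate 3 was not tested.

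Among the checkpoint kinase genes Chek2 (chromosome 5, 110839979 to 110874145, plus strand) had the smallest p. It held 74.9, 70.0, 81.7 and 75.1 CPM in KO replicates 1 to 4 and 65.4, 71.6, 67.6 and 63.3 CPM in wild type replicates 1 to 4. Wild type replicate 2 lay above KO replicate 2, which kept the groups from separating (log2 fold change 0.17, 95% interval -0.12 to 0.47, adjusted p = 0.843 by edgeR). Chek1 averaged 97.0 ± 13.3 CPM in KO and 89.9 ± 17.2 CPM in wild type, with a log2 fold change of 0.11.

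Atm (chromosome 9, 53439149 to 53536740, minus strand) held 82.3, 80.1, 69.6 and 41.8 CPM in KO libraries and 97.5, 45.4, 103 and 72.1 CPM in wild type libraries. Atr (chromosome 9, 95857597 to 95951781, plus strand) held 55.6, 70.3, 47.4 and 33.0 CPM in KO libraries and 86.7, 36.1, 62.6 and 49.0 CPM in wild type libraries. Prkdc (chromosome 16, 15637866 to 15842235, plus strand), of the same kinase family, held 53.6, 71.9, 70.1 and 30.4 CPM in KO libraries and 65.7, 31.9, 67.6 and 77.3 CPM in wild type libraries. In all 3 genes the lowest libraries were KO replicate 4 and wild type replicate 2, 1 of each genotype. Their log2 fold changes were -0.22, -0.18 and -0.10, with 95% intervals of -0.82 to 0.38, -0.80 to 0.44 and -0.77 to 0.56. All 3 values rested on single libraries: that of Atm was -0.04 without KO replicate 4, -0.07 without wild type replicate 3, -0.09 without wild type replicate 1 and -0.41 without wild type replicate 2, while those of Atr and Prkdc turned sign when single libraries were left out.

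**Figure D3:**
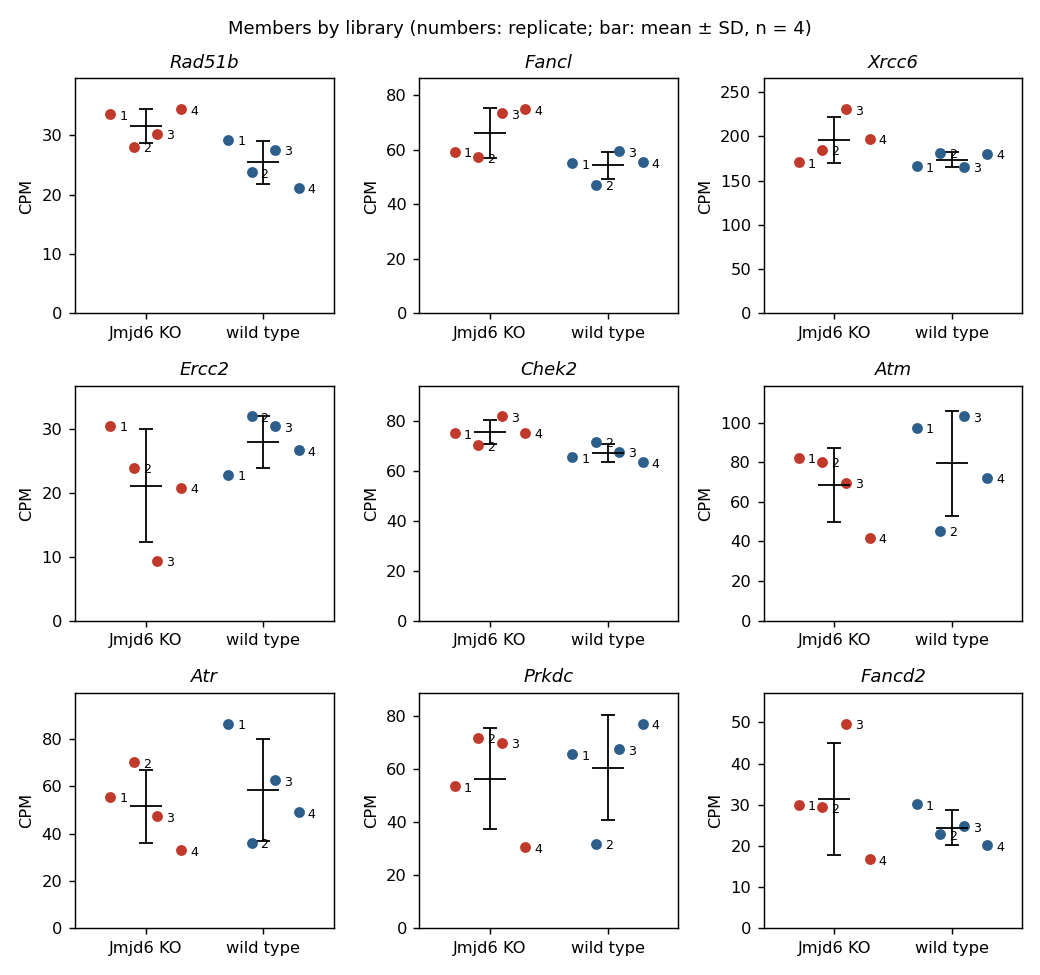
CPM of 9 genes in each library, Jmjd6 KO (red) left of wild type (blue), with the replicate number beside each point and the mean ± SD (n = 4) as a bar. Atm, Atr and Prkdc are lowest in KO replicate 4 and wild type replicate 2, Ercc2 is lowest and Fancd2 highest in KO replicate 3, and the groups overlap in every panel.

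The libraries at the extremes of the long genes belonged to both genotypes. The ratio of the highest to the lowest of the 8 libraries had a median of 1.6 over the 40 genes and was 2 or more in 13 of them. Of the 20 genes longer than the set's median exonic length of 5334 bases, 10 were lowest in KO replicate 4 and 5 in wild type replicate 2, while 8 were highest in wild type replicate 1. The median of the long genes' log2 CPM, set against each gene's mean over 8 libraries, was 0.08, 0.14, 0.03 and -0.31 in KO replicates 1 to 4 and 0.20, -0.27, 0.01 and -0.08 in wild type replicates 1 to 4. For the 20 shorter genes it was between 0.03 and 0.10 in KO libraries and between -0.16 and 0.02 in wild type libraries. Wild type replicate 4 was the lowest library in 10 of all 40 genes, of which 1 was among the 20 long genes.

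Across the 40 genes the deviation in a library correlated with exonic length at a Spearman rho of 0.49 in KO replicate 2, -0.71 in KO replicate 4, 0.65 in wild type replicate 1 and -0.42 in wild type replicate 2, and between -0.07 and 0.22 in the other 4 libraries. Over 13187 genes tested with a known length it was 0.17, -0.37, 0.22 and -0.03 in the 4 libraries named. With the GC content of the longest annotated transcript, the deviation in wild type replicate 2 correlated at 0.76 over the 40 genes and 0.50 over all genes, and that in wild type replicate 1 at -0.50 and -0.33. These are descriptions across genes that share a library. The fold change was lower in longer genes, at a rho of -0.37 over the 40 genes and -0.28 over all genes. The 20 long genes had a median log2 fold change of -0.03 and the 20 short ones 0.11, beside -0.08 and 0.05 for all genes cut at the same length. The part of length or GC content in the values of single genes was not tested.

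**Figure D4:**
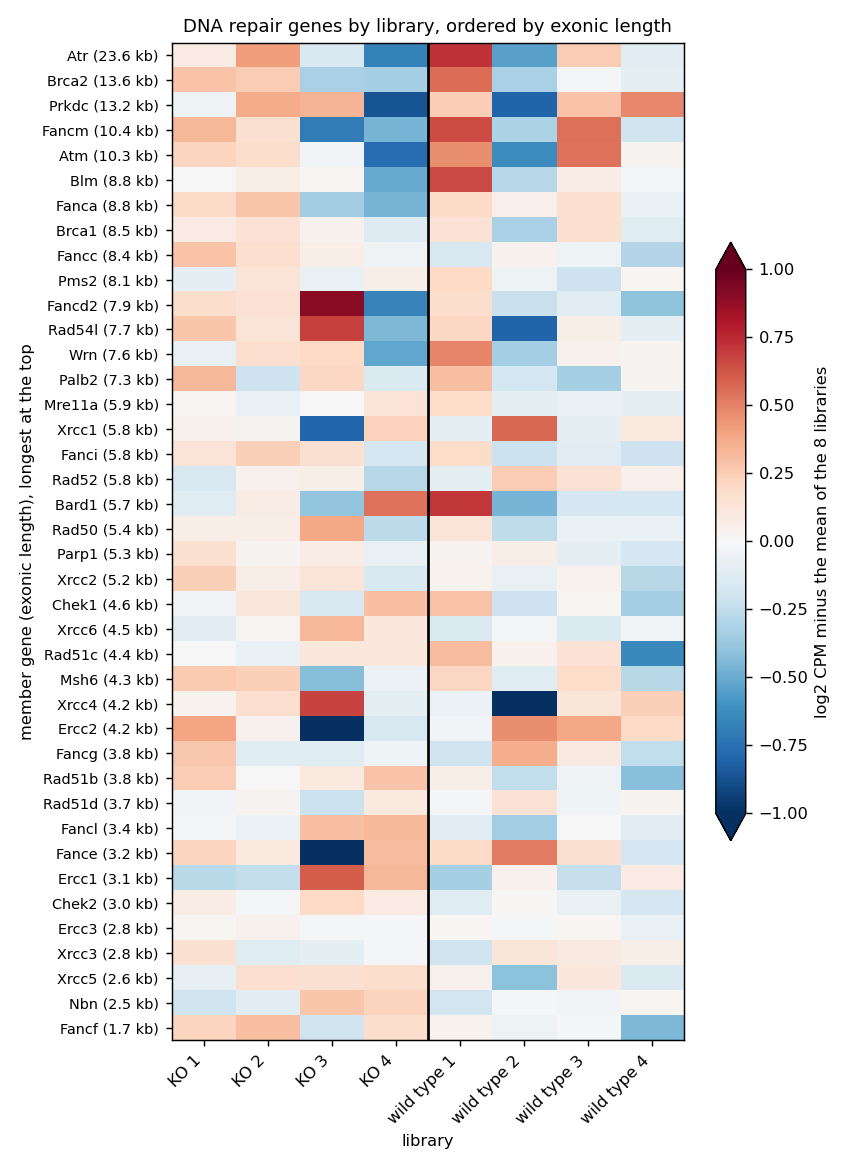
Log2 CPM of each gene minus its mean over the 8 libraries, with KO libraries left of the black line and wild type libraries right of it, and genes ordered from the longest exonic length (top) to the shortest. KO replicate 4 and wild type replicate 2 are blue and wild type replicate 1 red over the long genes at the top (medians of -0.31, -0.27 and 0.20 for the 20 long genes). KO replicate 3 is the highest library in 8 of the 40 genes and the lowest in 6, with its largest deviations at Ercc2, Fance, Fancd2 and Xrcc1.

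**Figure D5:**
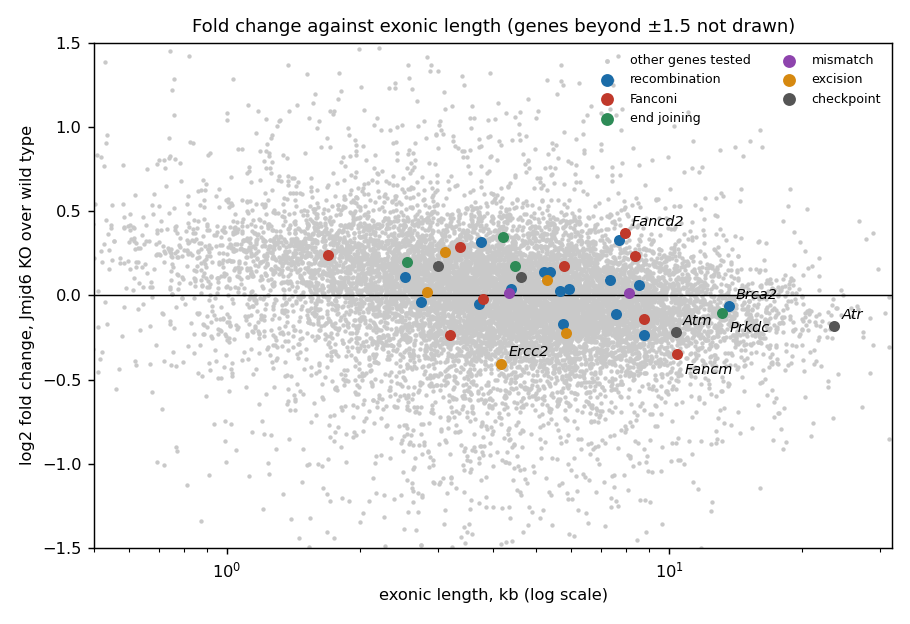
Log2 fold change, Jmjd6 KO over wild type, against exonic length in kilobases (log axis) for the 40 genes, coloured by pathway, over all other genes tested in grey. The coloured points lie within the grey cloud between -0.41 and 0.37 and are lower at greater length, at a Spearman rho of -0.37.

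A list of 109 other genes of the same pathways was read from the same fit; 103 of their symbols were in the table and 101 were tested. By edgeR 0 of the 101 passed over all genes, 6 had an unadjusted p under 0.05, 2 higher and 4 lower in KO, and 6 had groups that did not overlap, beside 6.06% and 4.19% of all genes tested. The median log2 fold change was 0.04, with 59 genes above 0 and 42 below. DESeq2 and limma voom also called 0 of the 101, beside 0.491% and 0.231% of all genes tested. They gave 6 and 11 an unadjusted p under 0.05, beside 6.8% and 9.96% of all genes tested. With single libraries left out, edgeR gave 2 to 7 of the 101 or 102 tested such a p. Over all genes it gave such a p to between 546 of 13746 and 1035 of 13753.

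Among those with the smallest p were Parp3, Apex1, Rmi2, Recql5 and Neil1, at adjusted p of 0.762 to 0.811 by edgeR. Apex1, the endonuclease gene that cuts at sites that have lost a base, averaged 282 ± 44.7 CPM in KO and 218 ± 15.7 CPM in wild type (log2 fold change 0.37, SE 0.15). Rmi2, a partner of the Blm helicase, averaged 26.4 ± 6.59 CPM in KO and 18.3 ± 2.32 CPM in wild type (0.53, SE 0.21), with 0.335 without KO replicate 3. Both had every KO library above every wild type library. Neil1, a glycosylase gene, averaged 13.8 ± 1.85 CPM in KO and 18.7 ± 2.85 CPM in wild type (-0.44, SE 0.20), with every KO library below every wild type library. Parp3 and Recql5 gave -0.62 and -0.71 with overlapping groups, and Recql5 was -0.45 without KO replicate 3.

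Genes of the cell cycle were measured beside those of repair because many repair genes are used in S phase. All 20 genes of the S phase list lay above 0, as did 6666 of the 13439 genes tested, with a median of 0.19, and their summed level was 5336 to 5864 CPM in KO libraries and 4807 to 5217 CPM in wild type libraries; 0 passed by edgeR over all genes and 2 had an unadjusted p under 0.05, beside 6.06% of all genes tested. Of the 20 genes of G2 and mitosis all lay above 0, with a median of 0.25, 0 passed and 3 had an unadjusted p under 0.05. Their sums were 3865 to 4204 CPM in KO libraries and 4512, 3537, 3292 and 3253 CPM in wild type replicates 1 to 4, so wild type replicate 1 lay above every KO library and the other 3 below. The mean log2 CPM of the 40 repair genes was 5.61, 5.61, 5.51 and 5.43 in KO replicates 1 to 4 and 5.67, 5.38, 5.57 and 5.42 in wild type replicates 1 to 4, so the wild type values enclosed those of KO. Genes of the blood lineage lists also varied between libraries. The summed level of 10 lymphoid genes was 359 to 514 CPM in KO and 217 to 305 CPM in wild type. Most of it was Nkg7, at 259 to 372 CPM in KO and 132 to 225 CPM in wild type, while Cd3e, Cd3g and Pax5 had at most 0.35 CPM in any library. The sum of 10 granulocyte-monocyte genes was 1539 to 2376 CPM in KO and 1004 to 5093 CPM in wild type. For 7 megakaryocyte genes it was 139 to 173 CPM in KO and 112 to 232 CPM in wild type. The sum of 10 erythroid genes was 975 to 1100 CPM in KO and 985 to 1665 CPM in wild type, most of it Car2 at 820 to 913 CPM in KO and 877 to 923 CPM in wild type. Of these 10 genes 8 had negative log2 fold changes (median -1.06); 0 passed by edgeR, and 4, all lower in KO, had an unadjusted p under 0.05. Of 7 lymphoid genes tested 6 lay above 0, with a median of 0.40, and 3, all higher in KO, had an unadjusted p under 0.05. The highest granulocyte-monocyte and erythroid sums were both in wild type replicate 1, the library in which 8 of the 20 long repair genes were highest. The part of cell cycle and cell makeup in the values of the repair genes was not tested.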

How the data were processed

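The deposited table holds raw counts per gene symbol in 8 libraries, which the authors aligned with HISAT2 to mm10 per the submitters' processing notes. The counter, the gene models and the use of strand are not stated in the sources used here, so reads of overlapping genes may be mixed. KO was compared with wild type in edgeR 4.0.16 (R 4.3.3) by its quasi-likelihood test, with TMM, filterByExpr (min.count 10, min.total.count 15), no covariate and Benjamini-Hochberg adjustment over 13439 genes, called under 0.05. Intervals come from the SE of that fit. The SE is the log2 fold change divided by the square root of F. CPM were computed here with TMM scaling, but marker genes with library totals alone. A prior count of 2 was added for log2 CPM. Alternatives were DESeq2 1.42.0, limma 3.58.1 voom, other scalings and filters, a replicate block, and leaving out each library. Every limma voom fit used sample weights. The fits were checked on simulated counts. Positions and lengths came from GENCODE M21 (GRCm38, the build mm10 names), promoters from RefSeq GRCm38.p6. Mre11a was looked up there as Mre11 too. Pairs of replicates differed beyond counting noise: chi-square over its degrees of freedom was 6.56 for KO replicates 1 and 2 and 15.4 to 86.9 for the other pairs.

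The 40 genes and all lists were chosen with earlier results of these data known. Values per library were given by rule for the gene with the smallest p in each pathway; Atm, Atr, Prkdc, Brca1, Brca2, Fancd2, Rad54l, Ercc1, Ercc3, Xrcc1, Xrcc4, Fance and other genes shown by library were chosen after their values were seen. The gene of each pathway with the highest level per length, and the 6 other pathway genes with the smallest p, were named by rule; 1 of these 6 is not reported here.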

Additional observations from a re-analysis of the deposited data

Results flagged for a closer look

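Of 82 groups of 4 libraries examined, those of the 40 genes and Jmjd6, 3 held a library far from the other 3, by a gap larger than 0.829 of the group's range; chance gives about 1 in 20 groups. Xrcc5 stood at 60.1 CPM in KO replicate 1, against 70.5 to 71.7 CPM in the other KO libraries (gap 0.904 of the range). Blm stood at 35.4 CPM in KO replicate 4, against 50.2 to 52.5 CPM in the other KO libraries (gap 0.86). Mre11a stood at 61.2 CPM in wild type replicate 1, with wild type replicates 2 to 4 at 50.4 to 51.6 CPM (gap 0.887).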

How the results depend on the processing

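The count of 0 of the 40 genes and 0 of the other pathway genes tested held under every alternative run, including a threshold of 0.1; 1 of the 40 had an unadjusted p under 0.05 without KO replicate 4 and 0 did otherwise, and the smallest adjusted p of any of the 17 members followed singly was 0.63. The count over all genes, 8, was 66 by DESeq2, 31 by limma voom, 3 with the replicate block, 4 in the 6 libraries with Y-linked counts (chosen after seeing the data) and 2 to 8 with single libraries left out. The member median of 0.04 was 0.0224 to 0.132 with single libraries left out, highest without wild type replicate 1, -0.01 with library size only and 0.09 with a trend on length and level removed. Jmjd6 was called by DESeq2 (-1.03, adjusted p = 3.32e-07) and limma voom (-1.02, adjusted p = 0.00527). It kept its call with other scalings and filters, at adjusted p of 0.0319 to 0.0483 by edgeR. Jmjd6 lost its call with the replicate block (-1.02, adjusted p = 0.402 by edgeR). The same held in the 6 libraries with Y-linked counts (-1.02, adjusted p = 0.105 by edgeR). With single libraries left out it gave -1.06 to -0.986, and the call held without KO replicate 3 alone. Replicate numbers are not stated to pair the libraries, the block called 0 of the 40, and deviations of same-numbered libraries correlated at -0.192 to 0.0322. Differently numbered KO and wild type libraries correlated at -0.291 to 0.423. The highest were KO replicate 3 with wild type replicate 4 at 0.423 and KO replicate 4 with wild type replicate 2 at 0.386. Of 391 single-gene values 17 turned sign, all of genes with no call. Msh6 gave -0.0301 with library size only. By limma voom with sample weights Atr gave 0.0269, Brca2 0.159 and Ercc1 -0.0199. Fancd2 gave -0.028 in the 6 libraries with Y-linked counts. With single libraries left out, Msh6 ran from -0.0702 to 0.14, Brca2 from -0.176 to 0.153, Atr from -0.357 to 0.079, Prkdc from -0.314 to 0.105, Fance from -0.379 to 0.0249 and Brca1 from -0.0257 to 0.135. Members with no turn of sign ranged over all alternatives from 0.235 to 0.404 for Rad51b, 0.111 to 0.372 for Fancl, 0.0873 to 0.258 for Xrcc6, 0.104 to 0.227 for Chek2, 0.127 to 0.495 for Rad54l, -0.621 to -0.158 for Ercc2, -0.41 to -0.0397 for Atm, -0.34 to -0.0316 for Xrcc1 and -0.514 to -0.152 for Fancm. The causes were not tested. The 2 libraries with fewest counts held 9344779 and 9964528, and only Rad51c and Bard1 fell under 100 counts in any library.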
